A study of Mus musculus with 13 samples.

Results

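The nuclear-encoded subunits of the mitochondrial oxidative phosphorylation system were followed by ribosome footprint profiling through endoplasmic reticulum (ER) stress in mouse fibroblasts. They were chosen by gene symbol (Nduf genes of the a, b, c, s and v series for complex I, Sdha to Sdhd for complex II, Uqcr genes for complex III, Cox4 to Cox8 genes for complex IV and Atp5 genes for complex V), without pseudogene entries. The rule uses names and a limit on low expression and no change after treatment, although it was set with earlier results of these data known. The limit averages over treated and untreated libraries, and in MEFs Cox6a2 passed it only through treated WT libraries. Of 22406 symbols in the tables, 83 matched. With a mean of at least 2 TPM (transcripts scaled to the same sum in every library), 76 of them counted as expressed among 10432 genes in mouse embryonic fibroblasts (MEFs), and 77 among 10117 genes in NIH3T3 fibroblasts. The expressed members in MEFs were 36 of complex I, 4 of complex II, 8 of complex III, 12 of complex IV and 16 of complex V.

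Footprints came from 13 libraries, 1 for each condition. Wild-type (WT) MEFs and MEFs knocked out for PERK (PERK −/−) were each taken untreated (control) and after 1, 2, 5 and 8 h of 1 µM thapsigargin (Tg), a blocker of the calcium pump of the ER. NIH3T3 cells, an established mouse fibroblast line labelled WT, were taken untreated and after 2 and 7 h of 200 nM Tg. No cells or buffers of any group held cycloheximide. PERK is a kinase of the ER membrane that phosphorylates eIF2α and lowers translation initiation under ER stress, and the comparisons ask how relative synthesis changes over time with and without it. With no replicates, no difference could be set against biological spread, and the 95% interval of a gene's change covers counting error only and that of a median the spread over members.

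Oxidative phosphorylation passes electrons from NADH (complex I) and succinate (complex II) through ubiquinone, complex III and cytochrome c to oxygen at complex IV, and the proton gradient so formed drives ATP synthesis at complex V. Most subunits are translated on cytosolic ribosomes and imported, whereas a small set is translated inside mitochondria, and assembly joins products of both. Since each complex is built with fixed numbers of its subunits, their relative synthesis can be set side by side within a complex.

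Total expected counts ranged from 2525029 to 11949174 in WT MEFs, from 6735073 to 14799515 in PERK −/− MEFs and from 2569965 to 11121006 in NIH3T3 cells. A list of 9 fibroblast markers (Vim, Col1a1, Col1a2 and others) summed to between 4826 and 8983 TPM in every library. The epithelial, endothelial and haematopoietic lists summed to at most 36.3, 5.14 and 4.49 TPM, and Ptprc was at 0 in every WT library. Their highest means were those of the epithelial Krt14 (14.9 TPM) and Krt8 (13.4 TPM) in NIH3T3 cells. For Eif2ak3, the gene of PERK, the WT libraries from control to 8 h held 254, 52, 48, 187 and 365 counts, and the PERK −/− libraries 74, 90, 113, 106 and 142. A total over the gene does not separate the deleted part from the rest, so these counts did not check the genotype. In NIH3T3 cells it had 385, 66 and 286. The WT libraries of 5 and 8 h were closer to each other than any other pair, with a median chi-square per gene of 0.628, against 0.455 for counting noise alone and a mean of 1.81 against 1. They were kept as separate conditions.

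The members were abundantly translated. In the WT control, their median was 219.7 TPM and 67 of 76 exceeded 100 TPM. Atp5b (catalytic β subunit of the F1 head), Cox7c (a small membrane subunit of complex IV) and Atp5g3 (a gene for the c-ring) stood highest, at 1506, 1459 and 1191 TPM. The same 3 genes led in the PERK −/− control, where the median was 251.4 TPM. In the NIH3T3 control, which was normalized in a separate table, the median was 305.6 TPM and Cox4i1, the ubiquitous subunit 4 of complex IV, led at 1796 TPM. Complex IV (565.2 TPM) and complex V (488.4 TPM) had the highest medians in the WT control, complex III lay between (297.6 TPM), and complexes I (152.8 TPM) and II (144.3 TPM) had the lowest. The untreated genotypes were close, since PERK −/− over WT had a median log2 ratio of 0.14 with an SD of 0.25 across the 76 members, against 0.08 and 0.59 across all expressed genes. Atp5sl, an assembly protein that matches by symbol, was the 1 member to differ 2-fold between the untreated genotypes.

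Uqcrh, the hinge protein of complex III that contacts cytochrome c1, had the largest fall among the members with at least 100 counts in both libraries compared. In WT MEFs it stood at 1129 TPM in the control and at 695, 309, 225 and 229 TPM after 1, 2, 5 and 8 h of Tg. Every treated WT library was therefore below the control, and those of 5 and 8 h were the lowest. The LFC (log2 fold change against the control, with TPM under 4 raised to 4) was −0.70 at 1 h, and it fell by 1.87, 2.33 and 2.30 at the later times. From 2636 counts untreated to 500 after 8 h, this gave a log2 ratio of −2.30 with an interval from −2.44 to −2.16. In PERK −/− MEFs, Uqcrh started at 1042 TPM and lay at 976, 1023, 902 and 901 TPM, with LFCs between −0.21 and −0.03. NIH3T3 cells had 796, 556 and 381 TPM (control, 2 and 7 h), a fall of 1.06 on the log2 scale at 7 h and an LFC of −0.52 at 2 h. The fall in NIH3T3 cells was short of 2-fold with TMM (−0.98) or DESeq2 (−0.94) factors. The difference between genotypes was not tested, because each had 1 library per time.

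Coding sequences of 6 short subunits whose footprint levels are described in detail are shown because the counted part of each is small and the changes are set against base composition further on. They came from GENCODE M21 (GRCm38, the assembly also called mm10), all on the minus strand, within the gene spans chr4:116066965-116075071 (Uqcrh), chr5:108433244-108434448 (Atp5k), chr13:86044816-86046904 (Cox7c), chr11:53427922-53430831 (Uqcrq), chr10:80402997-80406830 (Uqcr11) and chr19:7215153-7217616 (Cox8a). Capitals mark the part left after clipping 30 nt from each end, as the authors did before alignment, here on the GENCODE transcript. The first 3 belong to genes that were below the WT control after Tg, and the last 3 to genes above it.
Uqcrh: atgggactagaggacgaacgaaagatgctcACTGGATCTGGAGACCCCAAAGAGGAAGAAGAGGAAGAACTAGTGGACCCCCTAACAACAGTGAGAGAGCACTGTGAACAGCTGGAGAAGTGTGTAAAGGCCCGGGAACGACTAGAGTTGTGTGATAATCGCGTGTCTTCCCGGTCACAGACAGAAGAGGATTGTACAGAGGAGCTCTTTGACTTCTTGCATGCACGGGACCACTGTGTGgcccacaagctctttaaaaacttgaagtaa
Atp5k: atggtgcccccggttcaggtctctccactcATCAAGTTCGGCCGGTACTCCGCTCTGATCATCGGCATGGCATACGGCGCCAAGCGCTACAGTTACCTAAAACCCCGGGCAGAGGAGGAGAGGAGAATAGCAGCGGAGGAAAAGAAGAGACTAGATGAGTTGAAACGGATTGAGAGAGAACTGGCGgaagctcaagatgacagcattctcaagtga
Cox7c: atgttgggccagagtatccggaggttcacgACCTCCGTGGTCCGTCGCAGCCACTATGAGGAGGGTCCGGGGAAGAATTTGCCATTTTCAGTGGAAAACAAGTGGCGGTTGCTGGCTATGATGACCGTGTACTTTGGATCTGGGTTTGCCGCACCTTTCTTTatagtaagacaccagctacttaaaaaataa
Uqcrq: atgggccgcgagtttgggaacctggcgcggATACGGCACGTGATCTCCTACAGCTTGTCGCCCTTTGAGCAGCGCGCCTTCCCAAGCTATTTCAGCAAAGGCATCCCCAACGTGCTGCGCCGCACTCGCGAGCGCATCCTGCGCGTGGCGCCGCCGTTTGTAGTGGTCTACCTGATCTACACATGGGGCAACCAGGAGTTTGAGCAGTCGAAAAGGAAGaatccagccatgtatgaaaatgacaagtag
Uqcr11: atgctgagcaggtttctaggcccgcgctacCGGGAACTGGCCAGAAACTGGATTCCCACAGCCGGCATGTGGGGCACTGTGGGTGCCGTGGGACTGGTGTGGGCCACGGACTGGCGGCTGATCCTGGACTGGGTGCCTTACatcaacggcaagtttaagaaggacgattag
Cox8a: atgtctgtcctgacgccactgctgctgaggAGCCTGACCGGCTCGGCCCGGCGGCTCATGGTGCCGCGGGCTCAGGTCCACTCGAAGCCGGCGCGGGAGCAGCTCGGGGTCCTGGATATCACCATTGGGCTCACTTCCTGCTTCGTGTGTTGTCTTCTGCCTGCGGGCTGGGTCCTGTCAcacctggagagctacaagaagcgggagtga
The counted part was 210 nt in Uqcrh, 189 nt in Uqcrq and 111 nt in Uqcr11, the shortest coding sequence among the members at 171 nt. The share of G or C at the third codon position was 53.3% in Uqcrh, 63.9% in Atp5k and 60.9% in Cox7c, and 79.5%, 78.9% and 82.9% in Uqcrq, Uqcr11 and Cox8a.

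As a set, the members moved little in WT MEFs. Their median LFCs were 0.03, 0.07, 0.15 and 0.13 at 1, 2, 5 and 8 h, and the interval at 8 h was −0.13 to 0.32. The medians of all expressed genes were 0.00, 0.00, 0.00 and 0.01. All 4 comparisons share the WT control. At least 2-fold from the control were 0, 3, 4 and 5 of 76 members at 1, 2, 5 and 8 h. Cox6a2, which passed the TPM limit only through treated WT libraries, was 1 of the rises at 5 and 8 h. Of the 5 members at 8 h, 3 rose and 2 fell, whereas with TMM or DESeq2 factors 1 rose and 4 fell. At 5 h, 2 rose and 2 fell (2 and 4 with either factor), and at 2 h 1 rose and 2 fell (0 and 2 with either factor). Those counts are 0%, 3.95%, 5.26% and 6.58% of the members, against 6.62%, 9.66%, 9.4% and 10.3% of all expressed genes. Below the control lay 35, 36, 31 and 34 members, or 46.1%, 47.4%, 40.8% and 44.7%, against 44.7%, 42.7%, 41.4% and 41.1% of all expressed genes. Thus the share of members past 2-fold was under the background at each time, and the share below the control was within 5 percentage points of it. The background was not matched for level, and 67 of 76 members exceeded 100 TPM in the WT control. At 8 h the quartiles were −0.32 and 0.50 for members and −0.27 and 0.43 for all expressed genes. By that measure the members were not more tightly spread at 8 h. At 1 h the quartiles were −0.19 and 0.29 against −0.28 and 0.31.

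In PERK −/− MEFs, the medians were −0.14, −0.12, 0.04 and 0.09 (all expressed genes −0.06, −0.11, 0.00 and 0.04). The value at 1 h was −0.0063 with TMM factors, −0.0283 with DESeq2 size factors and −0.0036 after removal of the trend on third-position GC content. The value at 2 h turned to 0.09 with TMM factors, 0.06 with DESeq2 size factors and 0.06 without that trend. TMM factors moved the median of all expressed genes at 2 h by 0.14, to 0.03. Past 2-fold were 1, 1, 2 and 0 of 76 members, or 1.32%, 1.32%, 2.63% and 0%, against 4.1%, 6.4%, 8.03% and 6.01% of all expressed genes. Below the control lay 52, 47, 31 and 27 members (68.4%, 61.8%, 40.8% and 35.5%), against 55.7%, 58.4%, 48.3% and 40.1%. At 2 h, 27 members were below with TMM factors.

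NIH3T3 cells had the lowest medians, −0.35 (interval −0.41 to −0.27) and −0.19 (−0.34 to −0.12) at 2 and 7 h, against −0.13 and 0.00 for all expressed genes. The value at 2 h was −0.22 with TMM factors, −0.19 with DESeq2 size factors and −0.20 with counts thinned to the smallest library. It was −0.19 after removal of the trend on third-position GC content. The value at 7 h was −0.09 with DESeq2 size factors. Below the control lay 68 and 58 of 77 members, 88.3% and 75.3%, against 58.8% and 49.6% of all expressed genes. Past 2-fold were 1 and 4 members, 1.3% and 5.19%, against 9.52% and 15.1%. Most members were thus below the control by less than 2-fold. The median fold was 0.787 of the control at 2 h and 0.878 at 7 h.

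**Figure D1:**
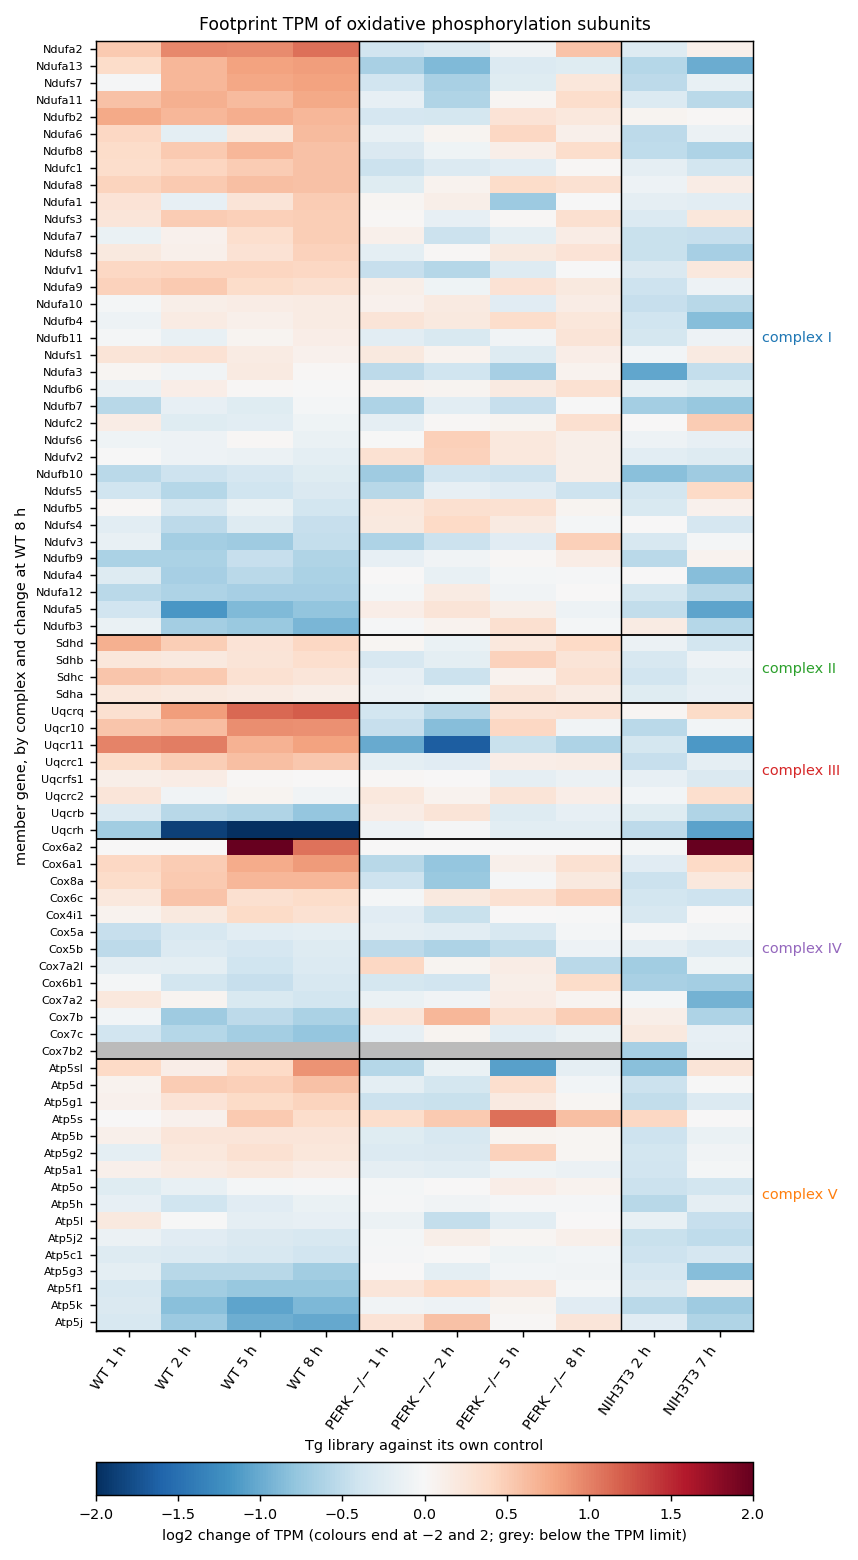
Log2 change of the expressed members other than 1 that is not shown (rows, grouped by complex) in the 10 Tg libraries (columns) against the control of its own line, from deposited TPM with values under 4 raised to 4. Most cells are pale, and Uqcrh in WT MEFs, with LFCs of −1.87, −2.33 and −2.30 at 2, 5 and 8 h, is the darkest run of blue (colours end at −2 and 2, and grey marks Cox7b2, which was under the TPM limit in MEFs).

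The medians of the complexes lay on both sides of 0 in WT MEFs. Complex II had medians of 0.39, 0.35, 0.27 and 0.29 at 1, 2, 5 and 8 h and complex III 0.29, 0.32, 0.33 and 0.27, whereas complex IV had −0.02, −0.10, −0.26 and −0.23 and complex V −0.14, −0.08, −0.11 and −0.08. Complex I lay at 0.00, 0.01, 0.16 and 0.15, and its value at 2 h was −0.04 with TMM factors. The value of complex IV at 1 h was 0.03 with counts thinned to the smallest library. Within every complex of more than 4 members the spread was wider than these medians. At 8 h complexes I, III, IV and V each had members above and below the control (median intervals −0.14 to 0.49 for complex I and −0.70 to 0.35 for complex V). For complex II only the range of its 4 members, 0.12 to 0.42, can be given. These intervals describe the spread over members of 1 library pair, and no complex was tested against 0.

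In PERK −/− MEFs at 2 h, the medians were −0.09, −0.16, −0.13, −0.14 and −0.12 for complexes I to V, and all 5 changed sign with TMM factors (0.13, 0.06, 0.09, 0.01 and 0.10). At 8 h they were 0.14, 0.28, −0.10, 0.03 and −0.01, and that of complex IV was −0.02 with TMM or DESeq2 factors. In NIH3T3 cells at 2 h they were −0.34, −0.28, −0.30, −0.23 and −0.42, all below 0, except that complex IV was at 0.01 after removal of the trend on third-position GC content. At 7 h they were −0.23, −0.18, −0.23, −0.17 and −0.23. Complex V thus had the lowest median in NIH3T3 cells at 2 h, by a margin smaller than the spread over its members (interval −0.50 to −0.28). Differences between complexes were not tested.

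**Figure D2:**
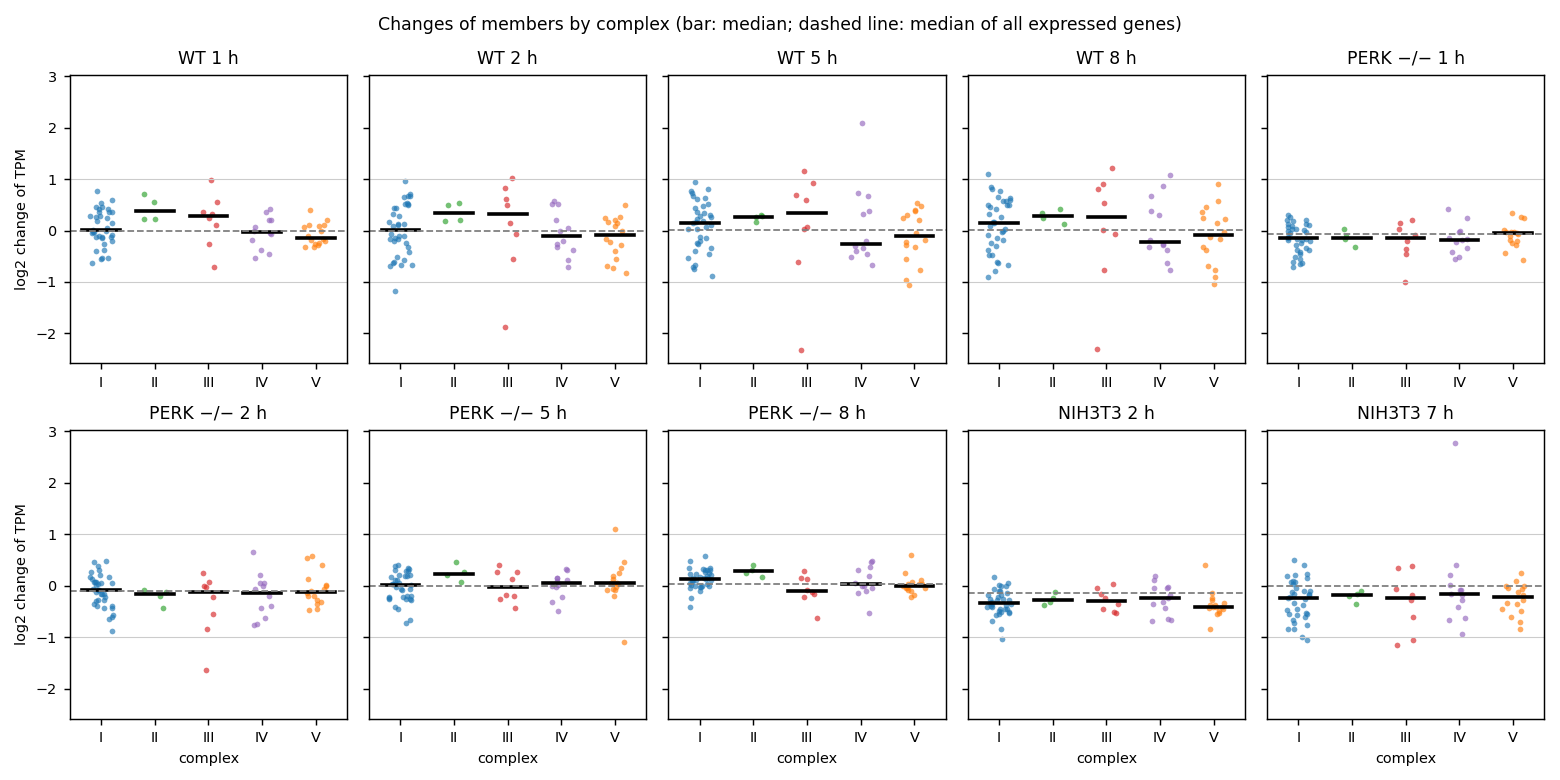
Log2 change of every member by complex (points), with the median of each complex as a bar and that of all expressed genes as a dashed line, for the 10 Tg libraries, each against its own control. In WT MEFs the 4 members of complex II were among 31 of 76 members above 0 at each time. In NIH3T3 cells at 2 h, 68 of 77 members (88.3%) lay below 0, against 58.8% of all expressed genes.

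Complex I is the NADH dehydrogenase, built of conserved core subunits that carry the flavin and the iron-sulphur clusters and of many accessory subunits around them. Ndufv1, which binds NADH and the flavin, stood at 108, 144, 146, 146 and 145 TPM in WT MEFs and at 135, 98.0, 90.8, 112 and 134 TPM in PERK −/− MEFs, so its values were higher than the control in all 4 WT libraries and lower in all 4 PERK −/− libraries. Ndufv2, its partner in the same module, had 149, 148, 139, 137 and 131 TPM in WT and 165, 203, 228, 190 and 179 TPM in PERK −/− MEFs, the opposite arrangement. After removal of the trend on third-position GC content, Ndufv2 lay above 0 in WT MEFs too (0.09 to 0.15). Ndufs7, an iron-sulphur subunit near the ubiquinone site, had LFCs of −0.03, 0.67, 0.77 and 0.80 in WT and −0.38, −0.65, −0.25 and 0.23 in PERK −/− MEFs. The core subunits Ndufs1, Ndufs3 and Ndufs8 did not diverge in this way. Each lay above the control in all 4 treated WT libraries and in 3 of 4 treated PERK −/− libraries.

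Among accessory subunits, Ndufa2 rose in WT MEFs at 8 h by 1.09 on the log2 scale (counts interval 0.98 to 1.21). Its TPM were 340 in the control and 490, 664, 655 and 727 after Tg, with the control lowest. In PERK −/− MEFs it had 369, 284, 302, 350 and 549 TPM, so only the library of 8 h was above the control. The rise in WT MEFs was short of 2-fold with TMM (0.9952) or DESeq2 (0.98) factors and after removal of the trend on third-position GC content (0.85). Ndufa5 fell by 1.17 at 2 h in WT MEFs, from 241 to 107 TPM on 77 counts, and lay at 131 and 140 TPM at 5 and 8 h. It also fell by 1.05 in NIH3T3 cells at 7 h, from 445 to 215 TPM (−0.96 with TMM and −0.93 with DESeq2 factors), while in PERK −/− MEFs its LFCs were between −0.10 and 0.27.

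Ndufa13, a membrane-arm subunit also known as GRIM-19, had 235 TPM in the WT control and 301, 372, 412 and 421 TPM after Tg, and 417 TPM in the PERK −/− control and 266, 226, 346 and 353 TPM after Tg. All treated WT libraries lay above their control and all treated PERK −/− libraries below theirs, with none past 2-fold. Ndufa3 fell by 1.04 in NIH3T3 cells at 2 h, from 350 to 171 TPM on 93 counts, and had 251 TPM at 7 h. That call ended with TMM (−0.91) or DESeq2 (−0.88) factors. Ndufb10, also of the membrane arm, lay at −0.84 there with an LFC of −0.72 at 7 h. Ndufa4, counted with complex I by name although later structures place it in complex IV, had LFCs of −0.26, −0.66, −0.53 and −0.63 in WT MEFs and between −0.15 and 0.00 in PERK −/− MEFs. The muscle and hypoxia isoform Ndufa4l2 had a single count over all MEF libraries.

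Other subunits of complex I were among the 3 highest or lowest members with at least 100 counts in a comparison, all short of 2-fold. In WT MEFs at 1 h, Ndufb2 had an LFC of 0.77, and Ndufb9 and Ndufb7 had −0.63 and −0.56. Ndufb3 lay at −0.91 in WT MEFs at 8 h, from 161 to 85.9 TPM, and at 0.17 in NIH3T3 cells at 2 h, where Ndufb7 had −0.68. In PERK −/− MEFs, Ndufs6 had 0.48 at 2 h, Ndufa1 −0.72 at 5 h on 142 and 105 counts, and Ndufv3 0.48 at 8 h. Ndufs5 lay at −0.42 in PERK −/− MEFs at 8 h and at 0.39 in NIH3T3 cells at 7 h, where Ndufc2 had the highest value of such members, 0.50. Of complex IV, Cox5b had −0.49 in PERK −/− MEFs at 5 h.

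Complex II, the succinate dehydrogenase, is the complex with no mitochondrially encoded subunit and also an enzyme of the tricarboxylic acid (TCA) cycle. All 4 members lay above the WT control, which the comparisons share, at each time, with none past 2-fold. They were among 31 of all 76 members above that control in all 4 treated WT libraries. At 8 h, 50.4% of all expressed genes lay above it. Sdha, the flavin subunit, had 158 TPM in the WT control and 184, 181, 177 and 172 TPM after Tg. Sdhb, the iron-sulphur subunit, had 130 TPM and then 152, 150, 156 and 165 TPM. The membrane anchors had wider values, Sdhc 169 TPM and then 249, 244, 208 and 200 TPM, and Sdhd 122 TPM and then 201, 173, 148 and 163 TPM. Both anchors were highest in the first hours, whereas Sdhb was highest at 8 h. In PERK −/− MEFs the complex median was −0.14 and −0.16 at 1 and 2 h and 0.23 and 0.28 at 5 and 8 h, and the value at 2 h turned to 0.06 with TMM factors. In NIH3T3 cells all 4 lay below the control at both times, with medians of −0.28 and −0.18. Of all members 88.3% and 75.3% lay below it there, against 58.8% and 49.6% of all expressed genes.

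Among members with at least 100 counts in both libraries, complex III held the largest rise and the largest fall of all comparisons (Uqcrq and Uqcrh, in WT MEFs). Its core proteins stayed within 2-fold. Uqcrc1 had WT LFCs of 0.37, 0.49, 0.60 and 0.53, Uqcrc2 lay between −0.07 and 0.25, and Uqcrfs1, the Rieske iron-sulphur protein, between 0.01 and 0.15. The small accessory subunits diverged. Uqcrq, a subunit beside cytochrome b, rose by 1.15 and 1.21 at 5 and 8 h, with 368 TPM in the WT control and 461, 655, 820 and 854 TPM after Tg. Both calls ended after removal of the trend on third-position GC content (0.83 and 0.83). Uqcr10 followed with 264 TPM and then 389, 406, 502 and 497 TPM, short of 2-fold. Uqcrb, by contrast, had 652 TPM and then 541, 444, 428 and 381 TPM. Thus within a complex whose subunits occur in equal numbers, Uqcrh stood at 3.06 times Uqcrq in the WT control and at 0.269 times Uqcrq at 8 h. In PERK −/− MEFs that ratio was 2.78 in the control, higher at 1 and 2 h (3.36 and 3.997) and lower at 5 and 8 h (1.99 and 1.97).

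Uqcr11, the smallest subunit, lay above its control in all 4 treated WT libraries and below it in all 4 treated PERK −/− libraries. It stood at 331 TPM in the WT control and 657, 670, 538 and 579 TPM after Tg, a rise of 1.02 at 2 h on 149 counts. In PERK −/− MEFs it started higher, at 656 TPM, and lay at 325, 210, 483 and 427 TPM, so it fell by 1.01 and 1.64 at 1 and 2 h. The treated WT libraries (538 to 670 TPM) and the untreated PERK −/− library (656 TPM) overlapped, and the WT control was close to the PERK −/− library of 1 h. In NIH3T3 cells it had 894, 699 and 405 TPM, a fall of 1.14 at 7 h. The rise in WT MEFs was short of 2-fold with TMM (0.93) or DESeq2 (0.95) factors, and the fall at 1 h in PERK −/− MEFs likewise (−0.88 and −0.90), while the fall at 2 h in PERK −/− MEFs stayed past 2-fold in every setting tried. The fall in NIH3T3 cells was −0.88 with thinned counts and −0.99 without the trend on third-position GC content. With 1 library for each control, the share of this pattern that belongs to the controls cannot be told apart from the effect of Tg.

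**Figure D3:**
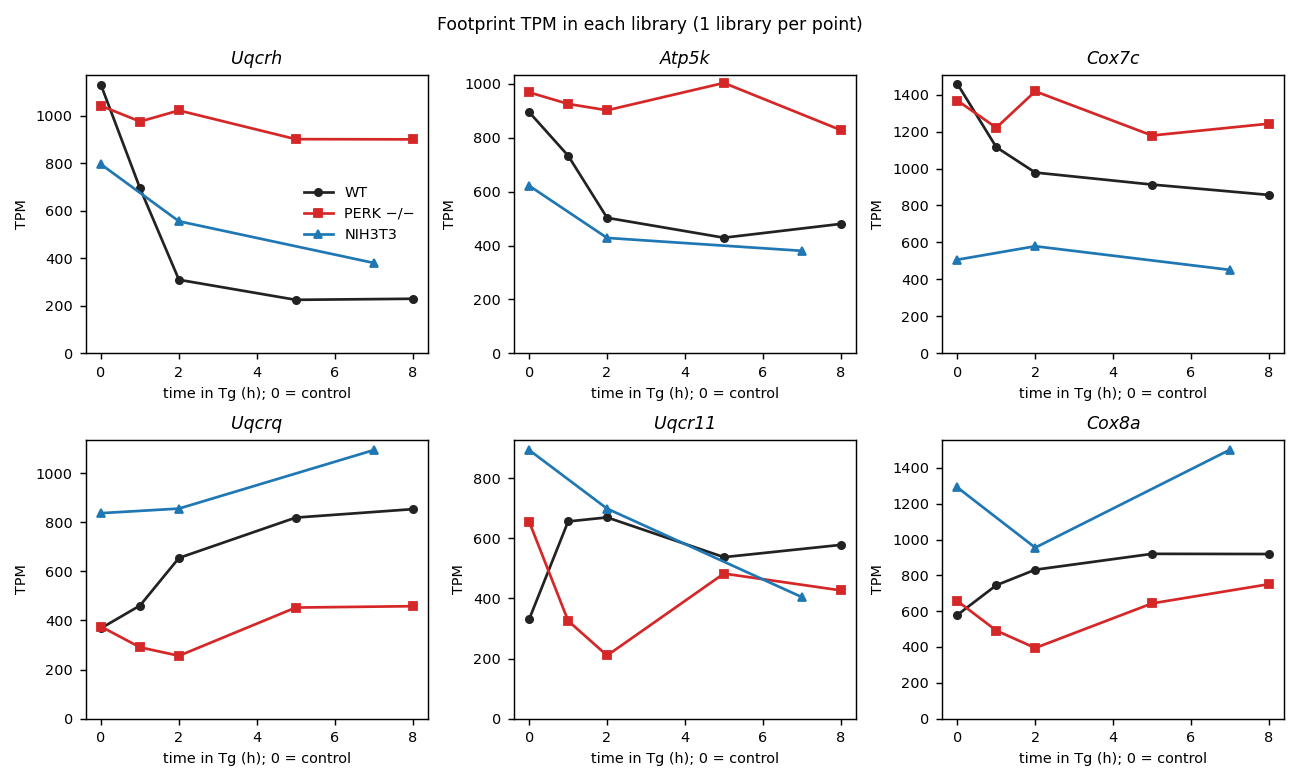
TPM of the 6 members whose sequences are shown in each library of WT MEFs, PERK −/− MEFs and NIH3T3 cells (linear axes from 0, each panel with its own scale, and NIH3T3 cells from a separately normalized table), joined within a line in the order of Tg time. Uqcrh goes from 1129 to 229 TPM in WT MEFs and stays between 901 and 1042 TPM in PERK −/− MEFs.

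Complex IV, cytochrome c oxidase, holds pairs of ubiquitous and tissue-restricted isoforms. The ubiquitous forms Cox4i1, Cox6a1, Cox6b1, Cox7a2 and Cox8a had at least 272 TPM in every MEF library. The partner forms were not counted as expressed, with Cox7a1 (a muscle form) at up to 1.08 TPM, Cox6b2 (a testis form) at up to 5.71 TPM, and Cox4i2, Cox8b and Cox8c at 0 in every MEF library. Cox6b2 lay just outside the limit at a mean of 1.64 TPM, and Cox6a2 (the heart and muscle form) just inside it at 2.90 TPM. Cox7b2, another testis form, had 0 TPM in MEFs but 21.1, 13.3 and 18.5 TPM in NIH3T3 cells. Cox6a2 passed the limit in MEFs only through the WT libraries of 2, 5 and 8 h, so its rises there are tied to the filter. It had no count in the WT control, 21 at 5 h and 21 at 8 h. The lower 95% counting limits of these ratios were 3.47 and 2.48 on the log2 scale, whereas the LFCs, with the control raised to 4 TPM, were 2.08 and 1.09. On that scale, its call at 8 h was short of 2-fold with TMM factors (0.91), DESeq2 factors (0.89), thinned counts (0.99) and without the trend on third-position GC content (0.80). It had 0 in all PERK −/− libraries, and rose by 2.78 in NIH3T3 cells at 7 h on 11 and 39 counts. With so few counts it carried little of complex IV, and as the highest member at 5 and 8 h in WT MEFs it leaves the complex medians as given when placed at those limits.

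Among the abundant subunits of complex IV, the WT values again went both ways. Cox7c had 1459 TPM in the WT control and 1116, 978, 913 and 857 TPM after Tg, and Cox7b 630 TPM and then 604, 386, 439 and 406 TPM. Cox6a1 had 477 TPM and then 634, 681, 795 and 865 TPM, and Cox8a 579 TPM and then 745, 832, 920 and 919 TPM. None of these passed 2-fold, while the counts interval at 8 h excluded 0 for each (for example −0.88 to −0.67 for Cox7c and 0.54 to 0.78 for Cox8a). In PERK −/− MEFs at 2 h, Cox6a1 and Cox8a lay below the control (LFCs −0.77 and −0.74) and Cox7b above it (0.66). Cox7a2l, a factor of respiratory supercomplexes and not a subunit of the complex itself, had LFCs between −0.39 and −0.18 in WT MEFs and 0.41 and −0.53 at 1 and 8 h in PERK −/− MEFs.

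Complex V, the ATP synthase, consists of a catalytic F1 head, a rotating central stalk and c-ring, and a peripheral stalk. The catalytic pair kept its proportion, with Atp5b at 1.98 to 2.40 times Atp5a1 in all 13 libraries. The ratio to Atp5c1, the central stalk subunit γ, was less even. Atp5b stood at 3.54 times Atp5c1 in the WT control and at 4.59, 5.06, 5.25 and 5.49 times after Tg, while the PERK −/− libraries ranged from 2.91 to 3.96. Atp5d, the δ subunit of the central stalk, had WT LFCs of 0.07, 0.50, 0.48 and 0.58, whereas Atp5c1 had −0.26, −0.28, −0.32 and −0.38. No F1 subunit passed 2-fold in any comparison. Atp5e, the ε subunit, was not analysed here.

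The c-ring genes Atp5g1, Atp5g2 and Atp5g3 encode the same mature protein, and the last 75 codons of all 3 gave identical residues although only 177 to 191 of 225 bases matched between pairs. Their sum stayed at 4.11 to 5.61 times Atp5c1 in all 13 libraries, while its make-up moved. Atp5g3 supplied 59.4% of the sum in the WT control and 56.8%, 46.0%, 44.0% and 41.7% after Tg. In PERK −/− MEFs it supplied 59.9%, 65.9%, 62.8%, 53.6% and 58.0%, and in NIH3T3 cells 33.5%, 35.5% and 24.5%. Footprints of about 30 nt that match more than 1 of these genes were divided by the authors' program, so the split is less certain than the sum.

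The stalk and membrane subunits included 2 members that fell. Atp5j, coupling factor 6 of the peripheral stalk, had 421 TPM in the WT control and 336, 255, 215 and 206 TPM, a fall of 1.03 at 8 h (−0.82 after removal of the trend on third-position GC content). In PERK −/− MEFs it had 376 TPM and then 453, 563, 382 and 444 TPM, all above the control. Atp5k, the small subunit e that takes part in dimers of the enzyme, had 895 TPM and then 734, 503, 429 and 480 TPM, a fall of 1.06 at 5 h (−0.94 with thinned counts), against 829 to 1004 TPM in all PERK −/− libraries. Atp5f1, subunit b of the peripheral stalk, had WT LFCs of −0.33, −0.69, −0.76 and −0.76 and PERK −/− LFCs of 0.25, 0.40, 0.25 and −0.04. Atp5o and Atp5h, also of that stalk, were nearer to their control at 8 h in WT MEFs, at −0.03 and −0.13. Atp5s and Atp5sl (Dmac2 in GENCODE) match complex V by symbol but are not structural subunits. They passed 2-fold in opposite directions in PERK −/− MEFs at 5 h (1.09 and −1.09) on 8 and 39, and 59 and 34, counts. The value of Atp5sl was −0.97 with a pseudocount of 1 TPM and −0.93 with thinned counts.

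Across members, the changes in WT MEFs and PERK −/− MEFs, which do not share a control, were related differently early and late. Over the 76 members, Pearson's r took the values −0.25, −0.52, 0.11 and 0.26 at 1, 2, 5 and 8 h, against 0.00, −0.05, 0.20 and 0.29 over all expressed genes. The value at 2 h was −0.43 with TMM factors and −0.38 after removal of the trend on third-position GC content. Spearman's rho at 2 h was −0.51. The points share their library, depth and control within each genotype, and genes are not independent replicates.

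The members' changes moved with the GC content of their codons. Third-position GC content had a median of 61.7% over members (range 39.2% to 85.5%) and 60.0% over all expressed genes, and the members' coding sequences were short, with a median of 433.5 nt against 1362 nt. In WT MEFs, Pearson's r between it and the LFC was 0.27, 0.44, 0.50 and 0.58 at 1, 2, 5 and 8 h, against 0.17, 0.26, 0.31 and 0.35 over all expressed genes. In PERK −/− MEFs it was −0.70, −0.66, −0.25 and −0.07, against −0.29, −0.39, −0.07 and 0.00. In NIH3T3 cells it was −0.41 and 0.11, against −0.14 and −0.08. Over all expressed genes the coefficients had the same sign and a smaller size in each comparison of WT MEFs and at 1, 2 and 5 h in PERK −/− MEFs, were near 0 for both at 8 h there, and had the same sign at 2 h and the other sign at 7 h in NIH3T3 cells. The members' Pearson coefficients had opposite signs in WT and PERK −/− MEFs at each time, although that of PERK −/− MEFs at 8 h was near 0 (−0.07).

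Grouped by third-position GC content, the 26 members of lowest content (39.2% to 56.6%) had a median LFC of −0.37 in WT MEFs at 8 h, the 25 in the middle 0.16 and the 25 of highest content (66.0% to 85.5%) 0.58. In PERK −/− MEFs at 2 h the same groups had 0.06, −0.10 and −0.39. With the trend over all expressed genes removed, an alternative added after seeing the data, Uqcrh still fell by 2.27 at 8 h in WT MEFs and Atp5k by 1.08. Uqcrq then had 0.83 and Ndufa2 0.85, short of 2-fold, and Ndufa13 had 0.27 in place of 0.84. The part of sequence composition, in the cells or in library preparation, in these values was not tested.

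**Figure D4:**
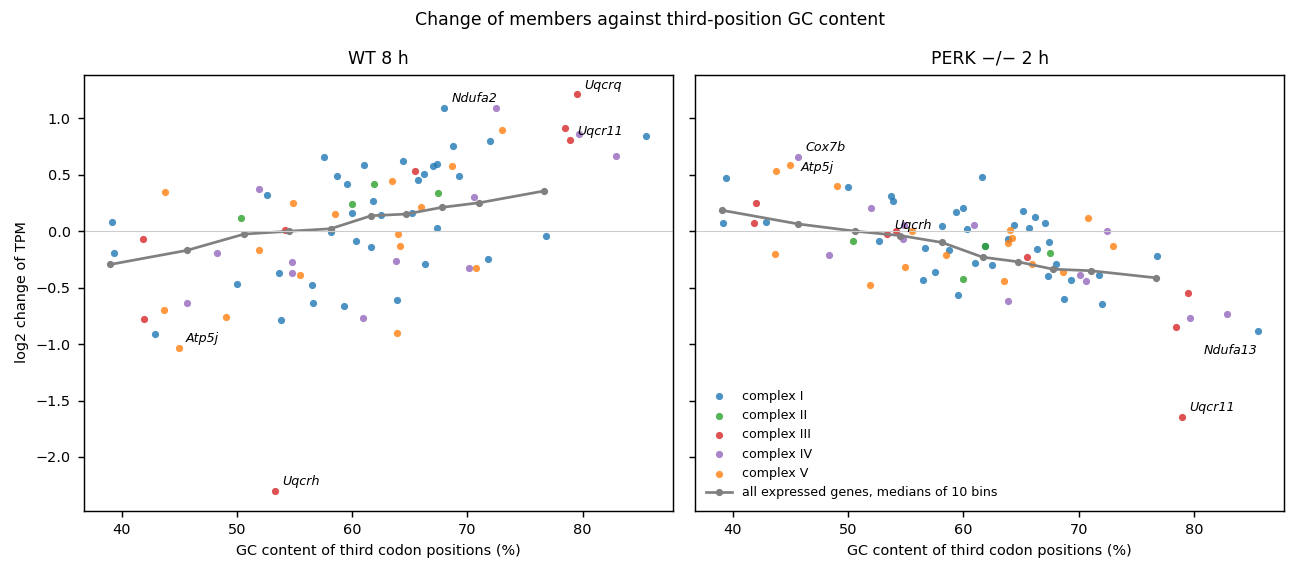
Log2 change against GC content of the third codon position (percent) for WT MEFs at 8 h (left) and PERK −/− MEFs at 2 h (right), with all expressed genes as a grey median line in bins and members coloured by complex. The points run upward with GC content on the left (r = 0.58) and downward on the right (r = −0.66), and Uqcrh lies apart from the others on the left.

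The 13 subunits encoded in mitochondrial DNA, which are translated by mitochondrial ribosomes and were listed after seeing the data, were followed beside the nuclear members. In WT MEFs their median LFC was 1.41 at 1 h, when 12 of 13 rose at least 2-fold, and 0.58, 0.25 and 0.18 at 2, 5 and 8 h, with 2, 0 and 0 past 2-fold. COX1, the catalytic subunit of complex IV, had 697 TPM in the WT control and 1968, 1247, 1026 and 969 TPM. In PERK −/− MEFs the medians were 0.16, 0.32, 0.82 and 1.06, with none past 2-fold until 9 of 13 at 8 h, and COX1 had 581, 691, 727, 1110 and 1306 TPM. In NIH3T3 cells the median was 1.80 at 2 h, with 13 of 13 past 2-fold, and 0.46 at 7 h, with none. The highest values thus came first in WT MEFs and NIH3T3 cells and last in PERK −/− MEFs. Of all expressed genes, 6.62%, 9.66%, 9.4% and 10.3% were past 2-fold in either direction in the treated WT libraries, in order of time. The shares were 4.1%, 6.4%, 8.03% and 6.01% in PERK −/− MEFs and 9.52% and 15.1% in NIH3T3 cells.

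As a share of all counts, the mitochondrially encoded subunits took 0.361% in the WT control and 0.961%, 0.563%, 0.451% and 0.427% after Tg, whereas the nuclear members took 1.24%, 1.28%, 1.30%, 1.31% and 1.31%. In PERK −/− MEFs the former took 0.308%, 0.339%, 0.378%, 0.529% and 0.611% and the latter 1.36%, 1.26%, 1.28%, 1.41% and 1.40%. In NIH3T3 cells they took 0.511%, 1.93% and 0.722% and 1.55%, 1.33% and 1.37%. By summed TPM, the share of the nuclear members in WT MEFs was instead below its control (2.67%) at each time, at 2.63%, 2.57%, 2.60% and 2.62%. The ratio of mitochondrially encoded to nuclear counts went from 0.291 to 0.749 at 1 h in WT MEFs, from 0.227 to 0.438 at 8 h in PERK −/− MEFs and from 0.330 to 1.45 at 2 h in NIH3T3 cells. TPM and counts are shares of a library, so a gain in footprints on mitochondrial ribosomes and a loss on cytosolic ones cannot be told apart. Within complex V, ATP8 lay below its WT control from 2 h on, with LFCs of −0.21, −0.65 and −0.82. The complex I subunits ND6 (−0.05, −0.35 and −0.57) and ND2 (0.00, −0.30 and −0.44) were also below it at 5 and 8 h, and in PERK −/− MEFs ND6 lay at −0.71 and −0.89 at 1 and 2 h.

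**Figure D5:**
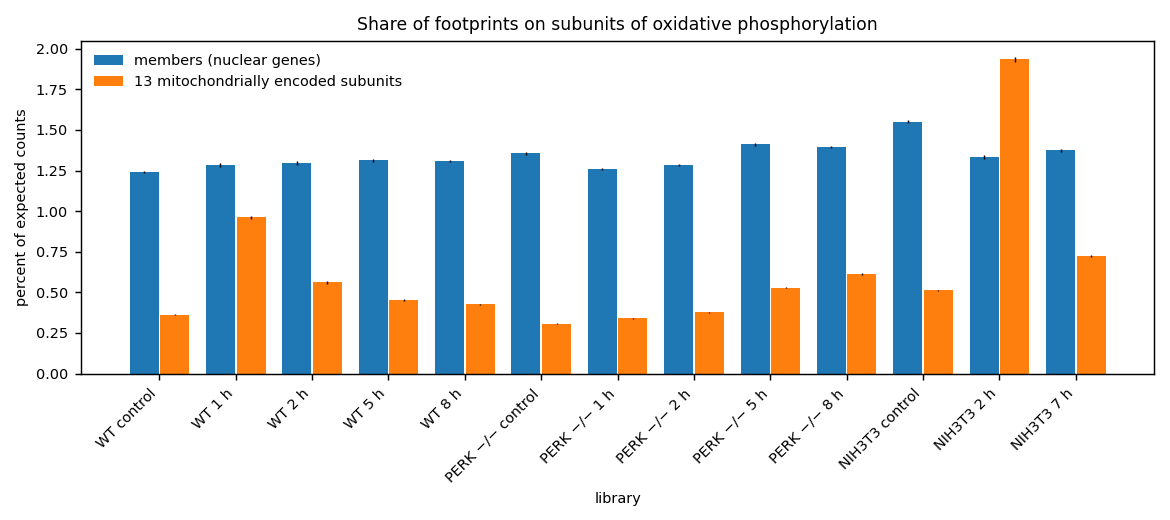
Percent of all expected counts in each of the 13 libraries that fell on nuclear-encoded members and on the 13 mitochondrially encoded subunits (linear axis from 0, bars for 95% counting intervals). The nuclear share stays between 1.24% and 1.55%, and the mitochondrial share peaks at 0.961% in WT MEFs (1 h), 0.611% in PERK −/− MEFs (8 h) and 1.93% in NIH3T3 cells (2 h).

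Other genes of the pathway were taken from lists fixed with the series' earlier results known. Of 47 expressed assembly factors, which build the complexes without remaining in them, 2 rose and 2 fell in WT MEFs at 8 h, and the median was 0.11. These 4 are 8.51% of the list, against 10.3% of all expressed genes. Foxred1, a complex I assembly factor, rose by 1.71 from 4.22 to 13.8 TPM, and Sdhaf1, which serves complex II, by 1.06 on 8 and 27 counts. Pet100 and Pet117, both for complex IV, fell by 1.00 and 1.02. Of 18 electron carriers and feeders, 2 rose and none fell (11.1%, against the same 10.3%), with a median of 0.33. Coq4 and Coq9, of ubiquinone synthesis, rose by 1.53 and 1.28, and cytochrome c (Cycs, 1008 to 635 TPM) had an LFC of −0.67 and Etfdh one of −0.53.

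Among 9 transporters and regulators of ATP synthase, none passed 2-fold in WT MEFs at 8 h and the median was −0.12. Slc25a5, an ADP/ATP carrier, had an LFC of 0.21, Ppif (cyclophilin D) 0.48, Vdac2, a porin of the outer membrane, −0.50, and Usmg5, a small protein of ATP synthase, −0.32, whereas Usmg5 rose by 1.06 in PERK −/− MEFs at 8 h. Of 15 genes of mitochondrial DNA expression and biogenesis, none passed 2-fold at that time (median 0.09), with Esrra at 0.59, Polrmt at 0.57, Tfb2m at −0.42 and Gabpa at −0.25. The 18 TCA cycle genes had a median of 0.29 with 15 above the control (83.3%, against 50.4% of all expressed genes) and none past 2-fold. Idh3g and Pdhx had LFCs of 0.57 and 0.41, and Sucla2 and Idh3a −0.57 and −0.40.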

How the data were processed

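Ribosome footprints of 13 libraries (WT MEFs, PERK −/− MEFs and NIH3T3 cells, 1 library per condition) were used. Footprints 22 to 34 nt long were retained by the authors. Those from rRNA or tRNA were discarded (STAR), and RSEM quantified Bowtie2 alignments to mm10 RefSeq coding regions trimmed of 30 nt at both ends, where only transcripts of 100 nt or more entered. Versions are not given in the sources used here. The authors' deposited tables of expected counts had no scaling between libraries and held whole numbers, so rounding changed none. TPM, which the authors computed per library, stood in separate tables for MEFs and NIH3T3 cells.

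A gene was kept where its TPM averaged 2 or more within the MEF or the NIH3T3 table (the authors averaged over all samples), a floor of 4 TPM replaced lower values, and changes were taken against the untreated library of the same line. Calls are changes of at least 2-fold. With 1 library per condition no test was made. Count ratios have exact conditional binomial (Clopper-Pearson) intervals and medians order-statistic intervals, at 95%, for counting error or the spread over members only. For the 4 members of complex II the interval is their range, which falls short of 95%. The gene tables do not show whether molecular identifiers were used, so these intervals take each count as independent. Where the control count was 0, only the lower limit of the interval was given. The members and all lists (assembly factors, electron carriers and feeders, transporters and regulators of ATP synthase, mitochondrial DNA expression and biogenesis, TCA cycle, subunit groups, cell type markers) were chosen with earlier results of these data known.

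Genes named with values are the 3 largest rises and falls per comparison among members with at least 100 counts in both libraries, several core and catalytic subunits, the isoforms, members near the TPM limit or past 2-fold, and the 2 largest changes each way per other list in WT MEFs at 8 h. Other genes named were picked with their values in view. Values of 1 member by itself are not reported here.

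Alternatives were a floor or pseudocount of 1 TPM, a mean of at least 5 TPM or none, counts thinned to the depth of the smallest library, size factors of DESeq2, TMM factors of edgeR, at least 100 counts, membership without Atp5s, Atp5sl, Cox7a2l and Ndufa4l2 or with Ndufa4 in complex IV, summed TPM for shares, and, added after seeing the data, removal of a lowess trend (fraction 0.3) on third-position GC content. Coding sequences came from GENCODE M21, which matched 76 of 76 members and 10262 of 10432 expressed genes. The change and interval calculations were tested on simulated data. Software was Python 3.11.15 (scipy 1.17.1, statsmodels 0.14.6, numpy 2.4.6, pandas 2.3.3, matplotlib 3.10.9, Biopython 1.88) and, for the factors, R 4.3.3 (DESeq2 1.42.0, edgeR 4.0.16).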

Additional observations from a re-analysis of the deposited data

Results flagged for a closer look

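In 8 of 76 members (10.5%, against 7.98% of all expressed genes), the changes in the 4 treated WT libraries all had 1 sign and those in the 4 treated PERK −/− libraries all had the other. The 4 libraries of a genotype share 1 control, so these are not 4 independent observations, and the difference between genotypes was not tested. The share was near that of all expressed genes and is not read as a trait of the members. Since the 8 were picked for opposite signs, the direction of each difference below follows from that choice. Some signs rested on LFCs near 0, as for Ndufv2 in WT MEFs at 1 h (−0.0108) and Ndufv1 in PERK −/− MEFs at 8 h (−0.0113). The median LFC in WT MEFs minus that in PERK −/− MEFs was 1.71 for Uqcr11, 1.20 for Ndufa13, 0.79 for Ndufv1, 0.78 for Atp5sl and 0.30 for Atp5a1, which were above the control in WT MEFs. It was −1.10 for Atp5j, −0.98 for Cox7b and −0.37 for Ndufv2, which were below it. The opposite signs in all 8 libraries held for Uqcr11 and Ndufa13 under each alternative that gave a value. They were lost for Atp5a1 with TMM factors, for Atp5j and Cox7b with thinned counts or without the trend on third-position GC content, for Ndufv1 with thinned counts, and for Atp5sl and Ndufv2 with TMM factors, DESeq2 size factors, thinned counts or without that trend. Without the trend, the difference was 1.32 for Uqcr11, 0.60 for Ndufa13 and −0.05 for Ndufv2. Chance was not assessed for this count.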

How the results depend on the processing

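No library could be left out, since each condition had 1. No paired analysis was possible because the libraries carry no replicate numbers. Of the medians by complex, 496 values under the alternatives lay inside the interval of the main median and 24 outside it. Of the medians of all members, 89 lay inside and 11 outside. Values inside a wide interval could still change sign, as for complex III in PERK −/− MEFs at 2 h (−0.13, and 0.09 with TMM factors). For the member and comparison pairs named as largest or past 2-fold, 593 values were recomputed. Of these, 551 were counted as unmoved against the width of the counting interval and 42 as moved. Not all of them could move. A limit on mean TPM or on counts only decides whether a member's value is kept, and a floor of 1 TPM alters only values under 4 TPM. The count of 551 therefore overstates how far the values were tested. On medians these alternatives act only through members of low level or few counts. A reversed direction was looked for only where the change was at least 2-fold, and none was found there. Some other changes of named members did reverse, as given above for members of opposite sign in the genotypes. Of 21 calls of at least 2-fold, 8 held under every alternative that gave a value, among them those of Uqcrh in WT MEFs. The causes were not tested. TMM and DESeq2 factors moved the median of all expressed genes in PERK −/− MEFs at 2 h by 0.14 and 0.11, DESeq2 factors moved it in NIH3T3 cells at 2 h by 0.11, no limit on the mean TPM moved it there by 0.13 and in PERK −/− MEFs at 2 h by 0.11, and removal of the trend on third-position GC content (the GC trend, chosen after seeing the data) by 0.12 in PERK −/− MEFs at 2 h and 0.15 in NIH3T3 cells at 2 h.

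For all members in PERK −/− MEFs, the median at 1 h was −0.0063 with TMM, −0.0283 with DESeq2 and −0.0036 without the GC trend, and at 2 h it was 0.0917, 0.0631 and 0.0586. In NIH3T3 cells at 2 h it was −0.22 with TMM, −0.19 with DESeq2, −0.20 with thinned counts and −0.19 without the GC trend, and at 7 h −0.0930 with DESeq2. Complex I in PERK −/− MEFs had 0.13, 0.10 and 0.13 at 2 h with TMM, DESeq2 and without the GC trend, and 0.0519 at 8 h with TMM. In NIH3T3 cells at 2 h it had −0.20, −0.17, −0.18 and −0.18 with TMM, DESeq2, thinned counts and without the GC trend. Complex II had 0.0575, 0.0289 and 0.0140 in PERK −/− MEFs at 2 h with TMM, DESeq2 and without the GC trend, and −0.10 and −0.0579 in NIH3T3 cells at 7 h with TMM and DESeq2. Complex IV in NIH3T3 cells at 2 h had 0.0058 without the GC trend. Complex V in PERK −/− MEFs had 0.0791, 0.0571 and 0.0360 at 1 h and −0.10, −0.0929 and −0.08 at 8 h with TMM, DESeq2 and without the GC trend, and 0.13 at 2 h without the GC trend. In NIH3T3 cells at 2 h it had −0.25 with DESeq2, −0.27 with thinned counts and −0.23 without the GC trend.

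The median of the mitochondrially encoded subunits was 0.54 with TMM and 0.52 with DESeq2 in PERK −/− MEFs at 2 h and 1.95 with DESeq2 in NIH3T3 cells at 2 h. Members past 2-fold in WT MEFs were 1 at 1 h and 8 at 8 h with thinned counts, and 2 at 8 h without the GC trend. In PERK −/− MEFs at 1 h they were 2 with a floor of 1 TPM and 0 without the GC trend, and at 2 h 2 with a floor of 1 TPM, a pseudocount of 1 TPM, TMM or DESeq2 and 3 with thinned counts. At 5 h they were 1 with the pseudocount, a mean of at least 5 TPM or thinned counts and 0 with at least 100 counts or without the genes that are not subunits, and at 8 h 1 with the floor or pseudocount of 1 TPM, TMM, DESeq2 or thinned counts. In NIH3T3 cells they were 0 at 2 h with TMM, DESeq2, at least 100 counts or without the GC trend, and 2 at 7 h with DESeq2. Below the control in PERK −/− MEFs at 2 h were 27 with TMM. As summed TPM the members' share was 2.67%, 2.63%, 2.57%, 2.60% and 2.62% in WT MEFs, 2.93%, 2.64%, 2.64%, 2.92% and 3.02% in PERK −/− MEFs and 3.38%, 2.74% and 2.83% in NIH3T3 cells (in the order of the libraries). The smallest libraries, WT at 2 h and NIH3T3 at 2 h, limit the precision for members such as Ndufa5 (77 counts) and Ndufa3 (93 counts).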
